A study of Mus musculus with 54 samples.

Results

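The CXC chemokine ligands Cxcl1, Cxcl2, Cxcl3, Cxcl10, Cxcl14 and Cxcl16 were followed in primary mouse microglia exposed to aggregating protein and then placed in contact with unexposed microglia. They were chosen by gene symbol and are 6 of the 16632 genes in the deposited count table, and 6 of 6 passed the filter on low counts that left 13169 genes for testing. Chemokines are small secreted proteins that guide migrating leukocytes through G protein-coupled receptors on those cells. Cxcl1, Cxcl2 and Cxcl3 are close relatives that act on the receptor Cxcr2 and are best known for attracting neutrophils, and their genes are classical targets of NF-kB in stimulated macrophages and microglia. Cxcl10 is induced by interferons and attracts activated T cells through Cxcr3. Cxcl14 is made constitutively in many tissues, and Cxcl16 is a membrane-bound chemokine that is shed by the proteases Adam10 and Adam17 and is recognised by Cxcr6.

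The cells came from neonatal C57BL/6 mice, with 2 brains pooled per flask, and were shaken off an astrocyte layer. Untreated cells (6 libraries, counted as 4 samples) received nothing, and aSyn-treated cells (4 libraries) received 1 uM alpha-synuclein (aSyn, the protein that accumulates in Parkinson's disease) tagged with Atto-488, for 14 h, without co-culture. Donors had the same exposure and were then mixed with acceptors, which carried a violet dye and no aSyn, and the populations were separated again by flow sorting. By the group labels the mixture lasted 0, 15, 30, 60, 150 or 300 min, with 4 libraries of each population per time except for 3 of each at 0 min, 3 donor libraries at 60 min and 3 acceptor libraries at 300 min. Each sample carries a replicate number from 1 to 4, and by the labels the passages were 3 in replicate 1, 1 in replicate 2 and 2 in replicates 3 and 4. Whether untreated and aSyn-treated cells also passed through the sorter, and whether the replicates were separate animals, is not given in the sources used here, so p-values measure the spread between these samples.

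Library totals ranged from 7807389 to 15537493 counts with 3′ end sequencing. The 8 microglial markers checked, which include Csf1r, Trem2 and Cx3cr1, were detected in every sample. Their summed level was 1549 to 3413 CPM (read counts scaled to library size) in replicate 4 and 3404 to 5303 CPM in the other replicates. In replicate 4 the sum was 3413 CPM in untreated cells and 1762 CPM in aSyn-treated cells. From 15 to 300 min that replicate was at 1549 to 1813 CPM in donors and 2997 to 3371 CPM in acceptors. Summed astrocyte markers (7 genes) had a median of 47.3 CPM in untreated cells, over a range of 10.4 to 135, and medians of 10.5 to 23.6 CPM in the other groups, and Gfap and Aqp4 were at 0 in 18 and 27 of the 52 samples. Summed oligodendrocyte lineage markers (6 genes) had a median of 196 CPM in untreated cells, over a range of 115 to 566, against medians of 79.7 to 131 elsewhere. Summed endothelial markers (Pecam1 and Cdh5) had medians of 2.32 CPM in aSyn-treated against 0.579 CPM in untreated cells, and of 1.53 to 3.10 CPM in donor groups against 0.216 to 0.818 CPM in acceptor groups. Summed neutrophil markers (S100a8 and Csf3r) reached 30.4 CPM in replicate 4 and at most 16.4 CPM in the others. Replicate 4 was at 24.7 CPM in aSyn-treated cells and 22.6 to 30.4 CPM in donors, and no acceptor sample exceeded 14.2 CPM. The part of all these markers in the results below was not tested. Replicate 4 also has library numbers from 110050 to 110063, apart from the 108934 to 108979 of the others, and it stood high in Cxcl1, Cxcl2 and Cxcl3 in most stimulated groups. The ribosomal RNA precursor Rn45s took 13.4 to 22.3% of the counts in replicate 4 and 1.42 to 13.5% in the others, and the part of this in the results was not tested. Results that rest on replicate 4 are therefore given with and without it where such a fit was run. In bulk RNA, fewer cells expressing a gene and less RNA per cell cannot be told apart.

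The sequences just upstream of the start sites are shown because Cxcl1, Cxcl2 and Cxcl3, which rose together after aSyn, share a motif there, with Cxcl10 for comparison. Cxcl1, Cxcl2, Cxcl3 and Cxcl10 lie on chromosome 5, Cxcl14 on chromosome 13 and Cxcl16 on chromosome 11 (mouse build GRCm38). The stretches below come from RefSeq (GRCm38.p6), run 5′ to 3′ on the strand of the gene and end 31 bases before the start. They cover chr5:90891125-90891214 for Cxcl1, chr5:90903779-90903868 for Cxcl2 and chr5:90785981-90786070 for Cxcl3, all on the plus strand, and chr5:92348920-92349139 for Cxcl10 on the minus strand. Capitals mark matches to GGAATTTCC or its complement GGAAATTCC (a kB core, the type of site NF-kB binds) and, in Cxcl10 alone, to GAAANNGAA (resembling an interferon-stimulated response element) and TGANTCA (AP-1).
Cxcl1: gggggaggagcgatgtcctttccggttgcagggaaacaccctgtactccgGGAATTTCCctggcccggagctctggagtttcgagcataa
Cxcl2: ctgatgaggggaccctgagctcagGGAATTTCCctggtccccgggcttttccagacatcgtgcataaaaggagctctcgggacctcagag
Cxcl3: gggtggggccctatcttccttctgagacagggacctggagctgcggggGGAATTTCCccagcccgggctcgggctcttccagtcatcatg
Cxcl10: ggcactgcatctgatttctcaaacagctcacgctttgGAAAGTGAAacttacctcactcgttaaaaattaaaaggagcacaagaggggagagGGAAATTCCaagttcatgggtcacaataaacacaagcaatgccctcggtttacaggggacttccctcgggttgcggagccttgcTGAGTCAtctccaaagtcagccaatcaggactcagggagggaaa

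In Cxcl1, Cxcl2 and Cxcl3 the kB core lay on the gene's own strand, with its first base 70, 96 and 72 bases before the start. In Cxcl10 it lay on the other strand, 158 bases before the start. Of 32851 mouse windows of 300 bases searched on both strands (250 before and 50 after each start), 0.317% held this kB core, 8.56% held GAAANNGAA and 7.81% held TGANTCA, and these searches did not overlap one another in the member windows. The Cxcl14 window held 1 match to GAAANNGAA and none to the other motifs. Cxcl16 has no window in the table used. The spellings were chosen after the windows had been read, so these matches describe the letters and say nothing of binding.

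**Figure D1:**
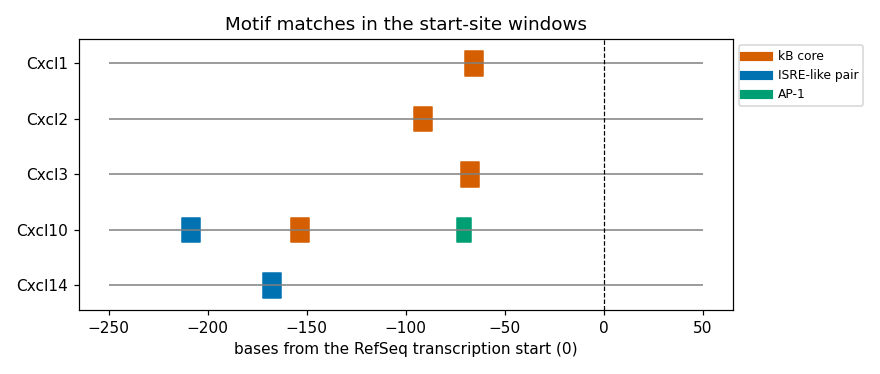
Positions of the motif matches in the windows of 5 of the 6 genes, in bases from the RefSeq transcription start at 0. Boxes mark the kB core (orange), the GAAANNGAA pair (blue) and AP-1 (green), and the kB core sits 70, 96 and 72 bases before the start in Cxcl1, Cxcl2 and Cxcl3.

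Exposure to aSyn without co-culture was accompanied by higher mRNA of the 3 neutrophil-attracting ligands and of Cxcl16, while Cxcl10 and Cxcl14 did not pass the test. A gene is called here at a Benjamini-Hochberg adjusted p under 0.05 in edgeR's quasi-likelihood test over all 13169 genes, and 4 of the 6 chemokines were called higher, against a background of 2.50% of all genes called in either direction 1.60% called higher and 0.896% called lower. The same 4 were called with the replicate number as a block, where the background was 19.2%, or 8.95% called higher. When only these groups were fitted, Cxcl3 alone was called (edgeR's adjusted p = 0.0379, background 0.320%), and Cxcl1, Cxcl2 and Cxcl16 were at edgeR's adjusted p of 0.0606, 0.0732 and 0.226. The median log2 fold change was 1.98 over the 6 chemokines and -0.04 over all genes tested.

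Cxcl1 was at 1.51, 1.35, 3.94 and 0.867 CPM in untreated replicates 1 to 4 and at 15.9, 16.7, 13.5 and 71.8 CPM in aSyn-treated replicates 1 to 4. The groups did not overlap, and replicate 4 held both the lowest untreated and the highest treated value. The log2 fold change was 3.99 (SE 1.01, edgeR's adjusted p = 0.0209), or 15.9-fold. Without replicate 4 it was 2.80 (edgeR's adjusted p = 0.000307). Leaving out replicate 1, 2 or 3 ended the call, with log2 fold changes of 4.15, 4.08 and 4.83 and edgeR's adjusted p of 0.0825, 0.10 and 0.0711.

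Cxcl2, whose protein acts on the same receptor, was at 42.3, 61.5, 82.5 and 10.1 CPM in untreated cells and at 348, 341, 255.1 and 784 CPM after aSyn. Every treated sample lay above every untreated sample. The log2 fold change was 3.14 (SE 0.67, edgeR's adjusted p = 0.00462), or 8.81-fold, and it was 2.36 without replicate 4 (edgeR's adjusted p = 4.23e-05). Cxcl2 was called whichever replicate was left out.

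Cxcl3 was close to absent from untreated cells, at 0.706, 0.654, 0 and 0.226 CPM, which rest on 0 to 8 counts per library. After aSyn it was at 6.56, 9.88, 8.83 and 30.9 CPM, again with no overlap and with replicate 4 the highest. The log2 fold change was 5.12 (SE 1.37, edgeR's adjusted p = 0.0313), or 34.7-fold. It was 4.15 without replicate 4 (edgeR's adjusted p = 0.000216), and the call ended without replicate 1, 2 or 3, at log2 fold changes of 5.63, 5.75 and 4.96 (edgeR's adjusted p = 0.0705, 0.118 and 0.184).

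Cxcl16 was at 133, 296, 213 and 128 CPM in untreated cells and at 348, 381, 284 and 349 CPM after aSyn. The ranges overlapped, because untreated replicate 2 lay above treated replicate 3, but each treated sample exceeded its own untreated sample. The log2 fold change of 0.82 (SE 0.22, edgeR's adjusted p = 0.0261) is a 1.77-fold rise. Without replicate 1, 3 or 4 it was 0.69, 0.96 and 0.67 and was no longer called (edgeR's adjusted p = 0.195, 0.111 and 0.0960). With the replicate block the rise was 0.87 (SE 0.19, edgeR's adjusted p = 0.00132), and 0.70 (edgeR's adjusted p = 0.0116) in the blocked fit without replicate 4. The shedding proteases Adam10 and Adam17 were not called, at log2 fold changes of -0.05 (edgeR's adjusted p = 0.899) and 0.18 (edgeR's adjusted p = 0.740).

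Cxcl10 varied more among untreated samples than between groups. It was at 42.1, 409, 107 and 12.9 CPM in untreated replicates 1 to 4 and at 168, 203, 86.7 and 60.5 CPM after aSyn. The high untreated value came from both libraries of replicate 2, and only replicates 1 and 4 were higher after aSyn. The log2 fold change was -0.14 (SE 0.70, edgeR's adjusted p = 0.948) and turned to 0.99 without replicate 2 (edgeR's adjusted p = 0.519) and to 0.34 with the block (edgeR's adjusted p = 0.552).

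Cxcl14 was at 20.5, 11.4, 27.3 and 31.9 CPM in untreated cells and at 28.4, 24.2, 40.6 and 11.3 CPM after aSyn. It was higher after aSyn in replicates 1 to 3 and lower in replicate 4. The log2 fold change was 0.20 (SE 0.38, edgeR's adjusted p = 0.840). It was 0.71 and called (edgeR's adjusted p = 0.0199, background 12.4%) only where the block was added and replicate 4 left out together, and was not called in the fit without replicate 4 alone.

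**Figure D2:**
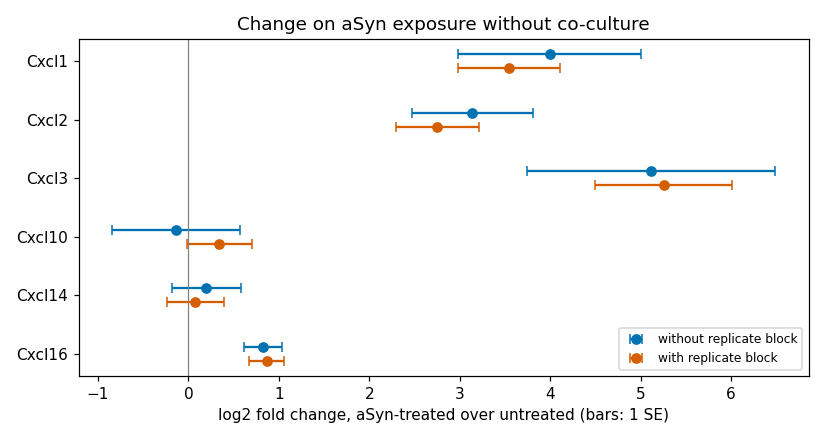
Log2 fold change of each chemokine in aSyn-treated over untreated cells (4 samples each), without (blue) and with (orange) the replicate number in the model, with bars of 1 SE. Cxcl1, Cxcl2 and Cxcl3 lie between 2.75 and 5.26, Cxcl16 near 0.8, and Cxcl10 and Cxcl14 between -0.14 and 0.34.

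The other CXC ligands are given from a fixed list of 9, of which 8 were in the table and 6 were tested. Cxcl9, an interferon gamma target that shares the receptor of Cxcl10, was called higher after aSyn, at 74.01 ± 112 CPM (SD, n = 4) against 2.94 ± 2.71, with a log2 fold change of 4.62 (edgeR's adjusted p = 0.0270). Treated replicate 4 alone was at 241.1 CPM and the others at 10.8 to 30.9 CPM. Without replicate 4 the value was 2.27 and not called (edgeR's adjusted p = 0.0508), and the call also ended without replicate 1, 2 or 3 (edgeR's adjusted p = 0.0703, 0.0801 and 0.124). With the block and without replicate 4 it was 2.32 and called (edgeR's adjusted p = 0.000452). With the replicate block Cxcl5, another Cxcr2 ligand (3.76, edgeR's adjusted p = 0.0247), and Pf4, platelet factor 4 (0.66, edgeR's adjusted p = 0.0222), were called as well. None of the 6 was called lower in either fit. Cxcl5 was at 0 in 33 of the 52 samples, was not tested without replicate 4 and was not called in the blocked fit without replicate 2 (edgeR's adjusted p = 0.114).

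Of 8 listed receptors 7 were in the table and 4 were tested, and only Cxcr4, the receptor of Cxcl12, was called higher after aSyn, by 1.16 (edgeR's adjusted p = 0.00183). It was at 70.6 ± 18.8 CPM in untreated and 158 ± 31.9 CPM in aSyn-treated cells (SD, n = 4), and the call ended without replicate 3 (1.05, edgeR's adjusted p = 0.0518). Cxcr2, through which Cxcl1, Cxcl2 and Cxcl3 act, never exceeded 13 counts in a sample, and Cxcr6 never exceeded 5. Neither was tested.

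Regulators of these genes were described from fixed lists. Of 12 NF-kB subunits and feedback inhibitors, Tnip1, an inhibitor of the pathway, was called higher after aSyn (1.15, edgeR's adjusted p = 0.0384) and none was called lower. With the block 7 of 12 were called higher, as were 8.95% of all genes. Among the 7 were Tnfaip3, an inhibitor that is itself an NF-kB target (1.08, edgeR's adjusted p = 0.00917), Bcl3 (1.20, edgeR's adjusted p = 0.00478) and Rel (0.67, edgeR's adjusted p = 0.0113). Of 6 regulators of chemokine mRNA decay, Zc3h12a, an RNase that degrades inflammatory transcripts, was called higher (1.17, edgeR's adjusted p = 0.0385). The calls of Tnip1 and Zc3h12a ended without replicate 1, 2 or 3, at edgeR's adjusted p of 0.0760 to 0.234 and 0.0749 to 0.195, and that of Rel ended in the blocked fit without replicate 4 (0.60, edgeR's adjusted p = 0.0636). Of 14 genes of the interferon pathway none was called in the fit without the block (1 had an unadjusted p under 0.05), and Ifnar1 was called higher with it, but not in the blocked fit without replicate 2 (0.26, edgeR's adjusted p = 0.213).

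After mixing, no chemokine was called different between donors and the aSyn-treated cells that had not been mixed. At none of the 6 times was any of the 6 chemokines called between donors and aSyn-treated cells by edgeR with or without the block or by DESeq2, and none had an unadjusted p under 0.05 without the block (with it, Cxcl1 and Cxcl2 did at 300 min). The background in this comparison was 0% of genes called from 0 to 150 min, and 0.0304% at 300 min (0.304% with the block, 0.0228% higher and 0.281% lower in donors). At 300 min Cxcl1 was at 3.61, 8.59, 9.97 and 45.0 CPM and Cxcl2 at 75.3, 180.2, 228.3 and 454 CPM in donor replicates 1 to 4. Each of these 8 values was below the same replicate's aSyn-treated value. The log2 differences from aSyn-treated cells were -0.81 (SE 0.87) and -0.88 (SE 0.62), and with the block -0.95 (SE 0.47, edgeR's adjusted p = 0.576) and -0.95 (SE 0.43, edgeR's adjusted p = 0.507).

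Across the 6 times in donors none of the 6 chemokines was called for a change, with a background of 0.0607% of genes (0.577% with the block), and none had an unadjusted p under 0.05 without the block. Cxcl2 was called when replicate 4 was left out (edgeR's adjusted p = 0.0451, background 0.199%) and in the blocked fit without it (edgeR's adjusted p = 0.00315, background 1.58%). In replicates 1, 2 and 3 Cxcl2 was at 539.6, 623 and 251.97 CPM in donors at 15 min and at 75.3, 180.2 and 228.3 CPM at 300 min. Replicate 4 was at 1249 and 454 CPM at these times. Cxcr4 was called lower in donors at 300 min than in aSyn-treated cells, by -1.13 on the log2 scale (edgeR's adjusted p = 0.0277, and 1.00, 0.601 and 0.199 without replicate 1, 2 or 3), and was at 72.03 ± 10.2 CPM (SD, n = 4), against 70.6 ± 18.8 in untreated cells.

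**Figure D3:**
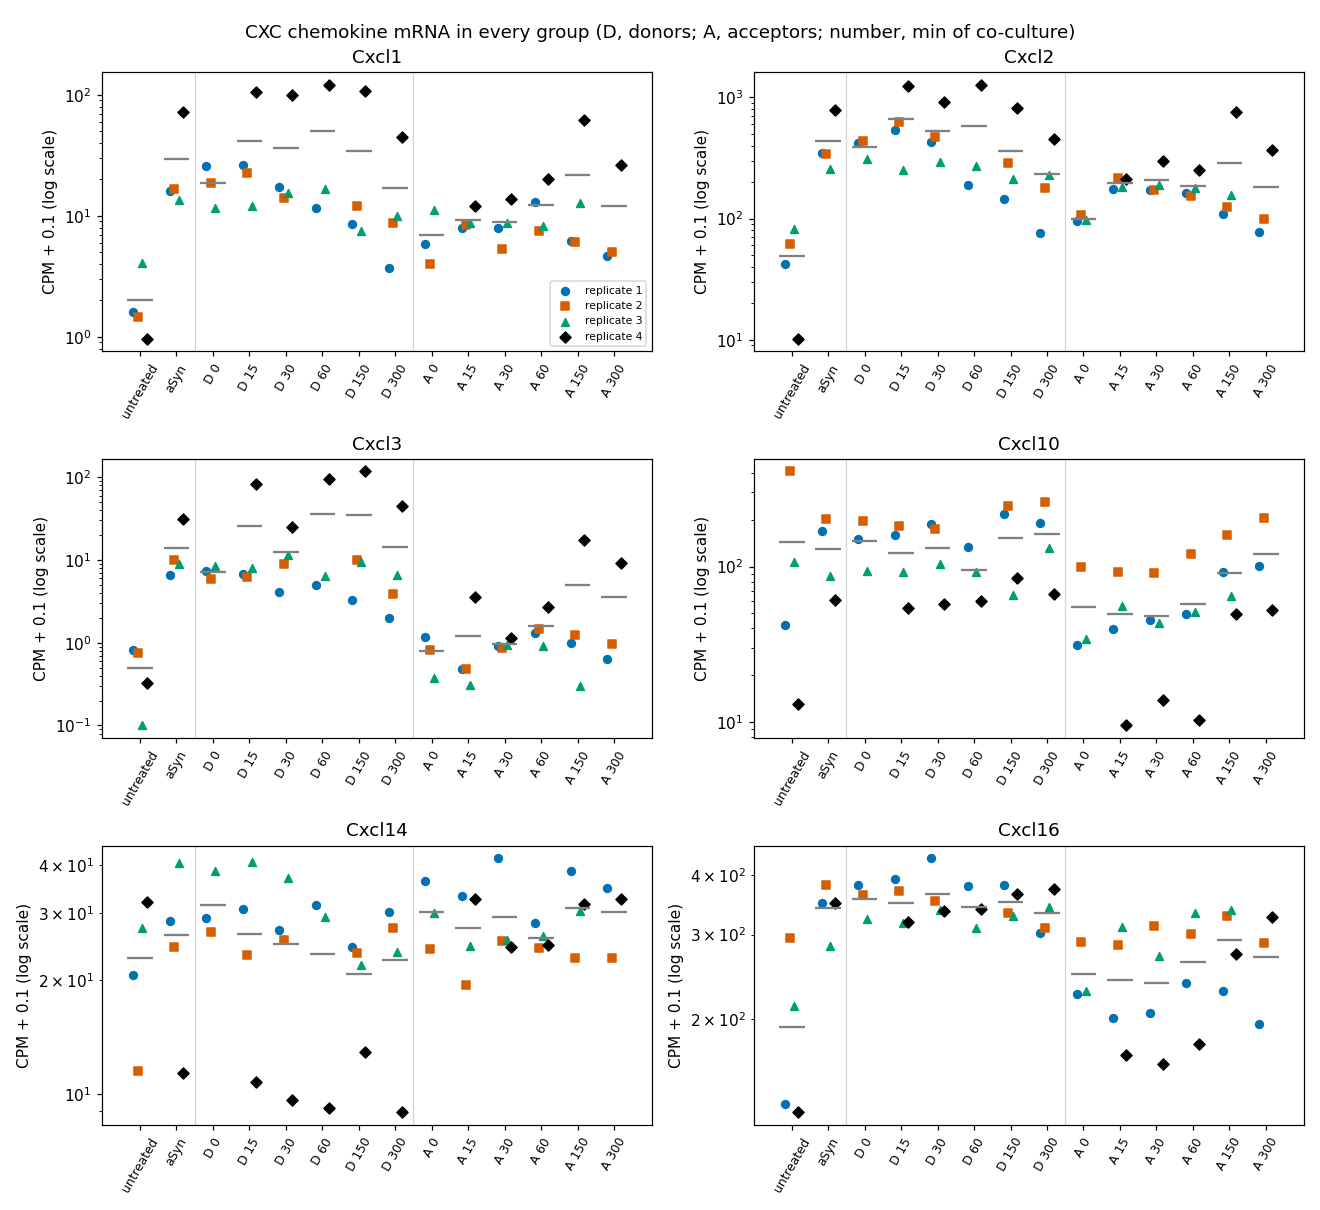
CPM + 0.1 on a log axis for each chemokine in the 14 groups, with 1 symbol per replicate and a grey bar at the group mean (3 or 4 samples). Replicate 4 (black) is highest in Cxcl1 in the aSyn-treated group and in each donor and acceptor group that holds it, up to 122 CPM in donors at 60 min, and lowest in Cxcl14 in the same aSyn-treated and donor groups.

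The group means of the 3 neutrophil-attracting ligands were all lowest in untreated cells. Cxcl1 was lowest in untreated cells (1.92 ± 1.38 CPM, SD, n = 4) and highest in donors at 60 min (49.9 ± 62.1, n = 3), Cxcl2 lowest in untreated cells (49.1 ± 30.8, n = 4) and highest in donors at 15 min (666 ± 419.9, n = 4), and Cxcl3 lowest in untreated cells (0.397 ± 0.341, n = 4) and highest in donors at 60 min (35.4 ± 51.6, n = 3). Cxcl16 ranged from 192 ± 79.2 in untreated cells to 365 ± 46.0 in donors at 30 min (n = 4 each). For Cxcl10 the lowest group was acceptors at 30 min (48.1 ± 31.7) and the highest donors at 300 min (162 ± 81.9, n = 4 each), and for Cxcl14 donors at 150 min (20.6 ± 5.32, n = 4) and donors at 0 min (31.4 ± 6.34, n = 3). These ranks depend on which groups hold replicate 4. Without it Cxcl1 at 60 min in donors was at 14.1 ± 3.56 CPM (n = 2), below donors at 15 min at 20.2 ± 7.35 (n = 3), and Cxcl3 at 60 min in donors was at 5.59 ± 1.06 (n = 2), below aSyn-treated cells at 8.42 ± 1.70 (n = 3), while Cxcl3 was then lowest in acceptors at 15 min. Without it the lowest group was untreated cells for Cxcl14 (19.7 ± 8.005, n = 3) and acceptors at 0 min for Cxcl10 (54.6 ± 38.1, n = 3), and Cxcl14 was highest in donors at 15 min (31.4 ± 8.79, n = 3). Of the 13 pairs of neighbours in each order, all overlapped in their sample values for each gene, except that Cxcl2 in acceptors at 0 min (99.8 ± 6.01, n = 3) did not overlap with untreated cells.

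Acceptors, which were not exposed to aSyn before mixing, had more Cxcl1 and Cxcl2 than untreated cells of the same replicate in every pair, 22 of 22 for each gene. Acceptors also differed from untreated cells in the violet dye, the mixing and possibly the sorting. The parts of these and of contact with donors cannot be told apart. The 22 pairs of each gene share the untreated samples and repeat the same replicates over time. How many of all genes were higher in every pair is not given here, so the counts do not set these chemokines apart. Cxcl1 exceeded the untreated value by 1.01 to 5.93 on the log2 scale and Cxcl2 by 0.23 to 6.21, with medians of 1.96 and 1.33. The counts were 19 of 22 for Cxcl3 and Cxcl16, 16 of 22 for Cxcl14 and 7 of 22 for Cxcl10. For Cxcl3 the untreated sample of replicate 3 held 0 counts, so any read in acceptors made its 5 pairs higher. The median log2 differences of Cxcl3 were 0.21 and 0.25 in replicates 1 and 2 and 3.25 in replicate 4.

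Without the replicate block none of the 6 was called at any time, although at 15, 30, 60, 150 and 300 min 3, 3, 3, 4 and 4 of the 6 had an unadjusted p under 0.05, as did 6.37%, 7.34%, 7.62%, 8.22% and 5.47% of all genes. The background was 0% of genes called at 0, 15 and 300 min, 0.114% at 30 min, 0.0683% at 60 min and 0.137% at 150 min. DESeq2 called Cxcl1 and Cxcl2 at 150 min, with 1.13% of genes, and no chemokine at the other times. With the block 1 chemokine was called at 0 min against a background of 0.995%, 2 at 15 min (2.25%), 2 at 30 min (3.60%), 2 at 60 min (4%), 4 at 150 min (4.78%) and 0 at 300 min (0.623%). All of them were higher in acceptors.

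Cxcl1 in acceptors was at 5.71, 3.87 and 11.1 CPM at 0 min in replicates 1 to 3, and at 7.89, 8.38, 8.63 and 11.9 CPM at 15 min in replicates 1 to 4. It was at 7.83, 5.26, 8.61 and 13.6 CPM at 30 min and at 12.9, 7.46, 8.11 and 20.2 CPM at 60 min. These values lie above every untreated sample, except for that of replicate 2 at 0 min, which was just below the highest untreated value of 3.94. With the block the log2 fold changes from 0 to 60 min were 2.37 (SE 0.61, edgeR's adjusted p = 0.0454), 2.30 (SE 0.59, edgeR's adjusted p = 0.0258), 2.16 (SE 0.58, edgeR's adjusted p = 0.0280) and 2.60 (SE 0.57, edgeR's adjusted p = 0.00606).

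At 150 min Cxcl1 in acceptors was at 6.06, 5.96, 12.7 and 62.2 CPM and at 300 min at 4.60, 4.96 and 26.4 CPM in replicates 1, 2 and 4. Replicate 4 stood far above the others at both times. The blocked log2 fold change at 150 min was 2.86 (SE 0.57, edgeR's adjusted p = 0.00187), and without replicate 4 it was 1.91 (edgeR's adjusted p = 0.0106). The blocked value at 300 min was 1.99 and was not called (edgeR's adjusted p = 0.130).

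Cxcl2 in acceptors was at 95.9, 107 and 96.8 CPM at 0 min, at 174, 215, 182 and 211 CPM at 15 min and at 171, 172, 189 and 299 CPM at 30 min. At 60 min it was at 164, 153, 178 and 252.6 CPM, at 150 min at 108, 125, 157 and 759 CPM and at 300 min at 76.9, 98.6 and 368 CPM. All but the replicate 1 value at 300 min lie above the highest untreated sample (82.5 CPM). With the block the log2 fold changes were 1.80 at 15 min (SE 0.44, edgeR's adjusted p = 0.0206), 1.80 at 30 min (SE 0.44, edgeR's adjusted p = 0.0183), 1.67 at 60 min (SE 0.44, edgeR's adjusted p = 0.0229) and 1.89 at 150 min (SE 0.45, edgeR's adjusted p = 0.00976). In the blocked fit without replicate 4 they were 1.62, 1.53, 1.43 and 1.08 and remained called (edgeR's adjusted p = 0.00226, 0.00154, 0.00446 and 0.0262).

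Cxcl3 stayed low in acceptors of replicates 1 to 3, between 0.199 and 1.38 CPM over all times, while replicate 4 was at 3.45, 1.05, 2.59, 17.4 and 8.98 CPM from 15 to 300 min. The blocked log2 fold change at 150 min was 2.82 (SE 0.82, edgeR's adjusted p = 0.0375). Without replicate 4 it was 0.61 and not called (edgeR's adjusted p = 0.698). Cxcl16 at 150 min was at 228.9, 328, 338 and 273 CPM, with a blocked log2 fold change of 0.63 (SE 0.19, edgeR's adjusted p = 0.0454), and 0.50 without replicate 4 (edgeR's adjusted p = 0.140). Without replicate 2 the blocked fit called no chemokine from 0 to 60 min, and at 150 min it called Cxcl1, Cxcl3 and Cxcl16 but not Cxcl2 (2.15, edgeR's adjusted p = 0.0531). The log2 fold changes of Cxcl1 from 0 to 60 min in that fit were 2.65, 2.18, 2.23 and 2.64, with edgeR's adjusted p of 0.150, 0.168, 0.135 and 0.0575.

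Cxcl10 in acceptors was below the untreated sample of its replicate in 6 of 6 pairs of replicate 2 and 5 of 5 of replicate 3. In replicates 1 and 4 it was higher in 4 of 6 and 3 of 5 pairs, and the differences at 150 and 300 min were 1.12 and 1.25 in replicate 1 and 1.91 and 2.02 in replicate 4. Its blocked log2 fold changes were negative from 0 to 150 min and lowest at 0 min (-1.35, SE 0.40, edgeR's adjusted p = 0.0911), and none was called. In the blocked fit without replicate 4 Cxcl10 was called lower at 0, 15 and 30 min, at -1.64, -1.34 and -1.44 (edgeR's adjusted p = 0.00877, 0.0387 and 0.0151), where 2.87%, 1.93% and 4.56% of all genes were called. In the blocked fit without replicate 2, whose untreated Cxcl10 was high, the values were -0.92, -0.60 and -0.59 and were not called (edgeR's adjusted p = 0.388, 0.505 and 0.481). For change over time in acceptors Cxcl10 had the smallest unadjusted p of the 6 with the block (0.000751, edgeR's adjusted p = 0.177), and none of the 6 was called in either fit, with backgrounds of 0.00759% and 0.137%. Its level in acceptors of replicates 1, 2 and 4 was at 45.0, 90.6 and 13.8 CPM at 30 min and at 101, 206 and 52.7 CPM at 300 min.

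**Figure D4:**
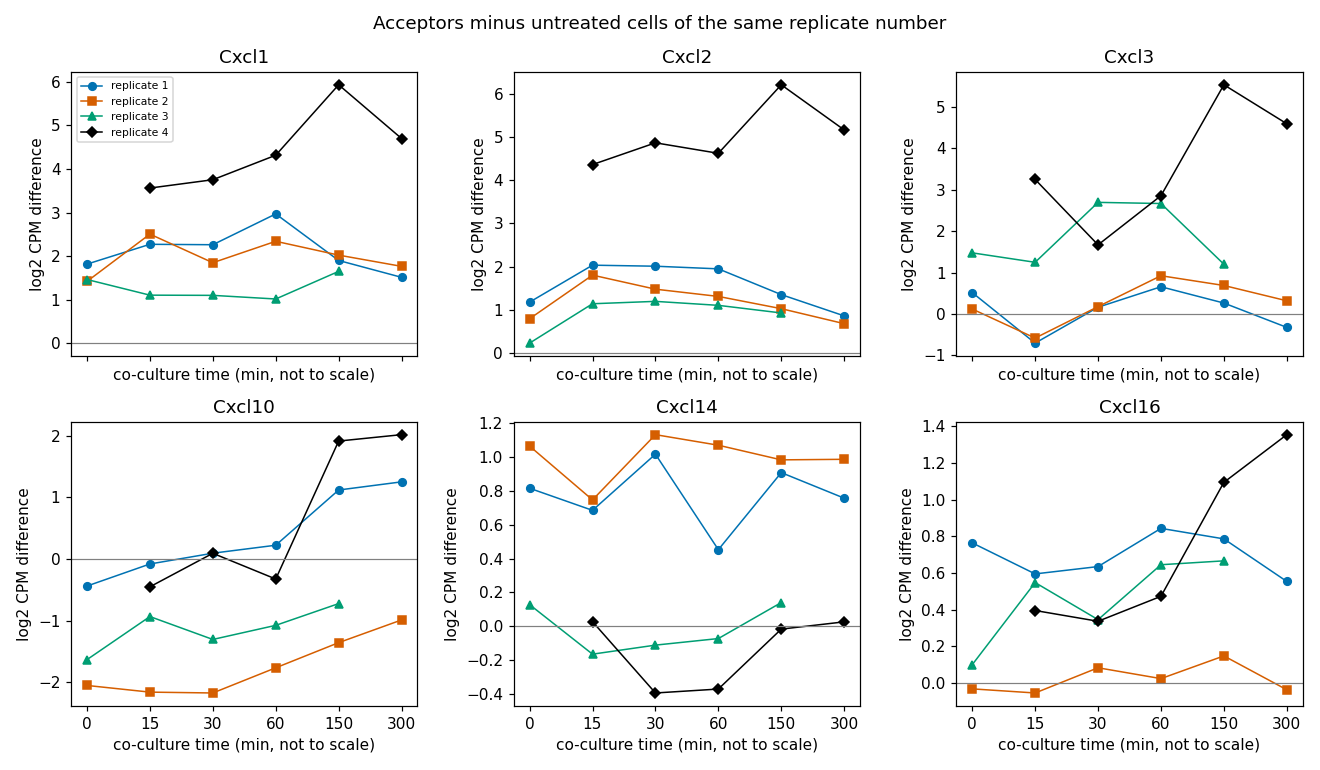
Log2 CPM difference (prior count 2) between acceptors and the untreated sample of the same replicate number at each co-culture time, with 1 line per replicate. Cxcl1 and Cxcl2 lie above 0 in 22 of 22 pairs each, and Cxcl10 lies below 0 throughout in replicates 2 and 3.

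Among the lists, Cxcr4 was called higher in acceptors than in untreated cells at 30 min (1.05, edgeR's adjusted p = 0.0335) and 60 min (1.33, edgeR's adjusted p = 0.00691), where it reached 177 ± 37.4 CPM (SD, n = 4). Both calls ended without replicate 1 or 3 (edgeR's adjusted p = 0.810 and 1.00 at 30 min, 0.319 and 0.198 at 60 min). At 300 min it was at 66.4 ± 5.61 CPM (n = 3) against 70.6 ± 18.8 in untreated cells. Of the 12 NF-kB genes none was called without the block at 150 min (6 had an unadjusted p under 0.05, as did 8.22% of all genes). With the block 5 were called higher, as were 2.32% of all genes. Among the 5 were Nfkbia, which holds NF-kB in the cytoplasm (0.93, edgeR's adjusted p = 0.00476), and Nfkbie (1.30, edgeR's adjusted p = 0.00293). Without replicate 4 the blocked values were 0.48, not called (edgeR's adjusted p = 0.0996), and 0.59 (edgeR's adjusted p = 0.0249). In the interferon pathway list, Stat2, which carries the type I interferon signal to the nucleus, was at a log2 fold change of -0.99 at 30 min and -0.93 at 60 min and was called lower with the block only (edgeR's adjusted p = 0.0280 and 0.0350). Ifit2, an interferon-induced antiviral effector, was called lower at 30 min with the block only, by -1.68 (edgeR's adjusted p = 0.0313). None of these 3 was called in the blocked fit without replicate 2 (edgeR's adjusted p = 0.126, 0.155 and 0.182).

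Donors were higher than acceptors of the same co-culture in Cxcl3 and Cxcl10 in 21 of 21 pairs of the same replicate and time. The pairs are repeated times of 4 replicate numbers, with 5 or 6 pairs each, so they are not independent. The share of all genes that were higher in every pair is not given here, so the counts do not set these chemokines apart. The counts were 20 of 21 for Cxcl2, 19 of 21 for Cxcl16, 18 of 21 for Cxcl1 and 10 of 21 for Cxcl14. The median log2 difference was 2.93 for Cxcl3, with a range of 1.59 to 5.11, and 1.00 for Cxcl10, with a range of 0.03 to 2.53. It was 1.20 for Cxcl2, 1.00 for Cxcl1 and 0.41 for Cxcl16.

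Without the block edgeR called none of the 6 between donors and acceptors in the fit of all 14 groups. The background from 0 to 300 min was 0.251%, 0.888%, 0.805%, 0.418%, 0.167% and 0.0304% of genes. Of the 6 chemokines 3, 4, 4, 3, 1 and 0 had an unadjusted p under 0.05 at these times, as did 7.48%, 11.5%, 11.4%, 9.85%, 8.42% and 6.11% of all genes. When only the groups compared were fitted, Cxcl2 and Cxcl3 were called at 0 min (edgeR's adjusted p = 0.00866 and 0.0433, background 0.367%). In such a fit at 30 min Cxcl3 was called (edgeR's adjusted p = 0.0432, background 0.113%). DESeq2 called Cxcl3 at 15, 30 and 60 min, with 1.75%, 1.88% and 1.01% of genes. With the block 3 of the 6 were called at 0 min against a background of 4.28%, 4 at 15 min (9.57%), 4 at 30 min (10.8%), 2 at 60 min (6.70%), 1 at 150 min (5.19%) and 0 at 300 min (1.38%), all higher in donors.

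Cxcl3 separated the populations most widely. In donors it was at 7.35, 5.75 and 8.27 CPM at 0 min and in acceptors at 1.08, 0.725 and 0.273 CPM. At 15 min donors were at 6.66, 6.06, 7.98 and 82.4 CPM and acceptors at 0.376, 0.387, 0.211 and 3.45 CPM. The groups did not overlap from 0 to 60 min. The acceptor values rest on few counts, 3 to 40 per library at 15 min.

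The blocked log2 difference of Cxcl3 was 3.47 at 0 min (SE 0.78, edgeR's adjusted p = 0.00544), 4.36 at 15 min (SE 0.68, edgeR's adjusted p = 3.44e-05) and 3.75 at 30 min (SE 0.66, edgeR's adjusted p = 0.000197). At 60 min it was 3.38 (SE 0.64, edgeR's adjusted p = 0.000835), and at 150 min 2.83 (SE 0.55, edgeR's adjusted p = 0.00138). At 300 min it was 2.22 and not called (SE 0.65, edgeR's adjusted p = 0.0691). When replicate 4 was left out Cxcl3 was called without the block too at 0, 15, 30 and 150 min, at 3.404, 4.43, 3.33 and 3.34 (edgeR's adjusted p = 0.00162, 0.000249, 0.00215 and 0.00526), but not at 60 min (2.30, edgeR's adjusted p = 0.0727). Neither population holds replicate 4 at 0 min. The call at 0 min thus came from unchanged samples, with the spread estimated from the other groups without replicate 4. In the blocked fit without replicate 2 the call at 0 min ended (3.69, edgeR's adjusted p = 0.0770).

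At 150 min Cxcl3 in donors was at 3.18, 9.77, 9.37 and 117 CPM, and in acceptors at 0.880, 1.15, 0.199 and 17.4 CPM. At 300 min the donor values were 1.91, 3.80, 6.41 and 45.4 CPM. Acceptors of replicates 1, 2 and 4 were at 0.535, 0.854 and 8.98 CPM then. The ranges overlap at both times through replicate 4 alone, whose acceptors lay above the other replicates' donors.

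Cxcl10 in donors of replicates 1 to 4 was at 189, 175, 104 and 57.1 CPM at 30 min and in acceptors at 45.0, 90.6, 43.1 and 13.8 CPM. The ranges overlap because replicate 2 is high and replicate 4 low in both populations, while the order within each replicate is the same. With the block the log2 difference was 1.54 at 0 min (SE 0.42, edgeR's adjusted p = 0.0267), 1.47 at 15 min (SE 0.37, edgeR's adjusted p = 0.00823), 1.61 at 30 min (SE 0.37, edgeR's adjusted p = 0.00349) and 1.40 at 60 min (SE 0.39, edgeR's adjusted p = 0.0243). At 150 and 300 min it was 0.75 and 0.52 (edgeR's adjusted p = 0.223 and 0.545). Without replicate 4 the call at 60 min ended (1.08, edgeR's adjusted p = 0.108), and without replicate 2 that at 0 min did (1.87, edgeR's adjusted p = 0.0542).

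Cxcl1 and Cxcl2 were called higher in donors than in acceptors with the block at 4 gene and time combinations, all within the first 30 min. For Cxcl1 the blocked log2 difference was 1.69 at 15 min (SE 0.49, edgeR's adjusted p = 0.0221) and 1.53 at 30 min (SE 0.48, edgeR's adjusted p = 0.0324), and for Cxcl2 it was 1.96 at 0 min (SE 0.51, edgeR's adjusted p = 0.0187) and 1.55 at 15 min (SE 0.44, edgeR's adjusted p = 0.0190). At 300 min the blocked differences were 0.60 (SE 0.53) for Cxcl1 and 0.61 (SE 0.47) for Cxcl2, neither called. These 4 calls ended without replicate 2 (edgeR's adjusted p = 0.113 and 0.148 for Cxcl1, 0.211 and 0.124 for Cxcl2). Without replicate 4, by contrast, Cxcl2 was called without the block at 0, 15 and 30 min (edgeR's adjusted p = 0.000432, 0.0205 and 0.0460, backgrounds 1.84%, 1.16% and 1.37%), and the blocked fit added Cxcl1 at 0 min and Cxcl2 at 30 min (edgeR's adjusted p = 0.00934 and 0.00559, backgrounds 11.1% and 8.58%). At 0 min the samples compared were the same in these fits, because neither population holds replicate 4 there. Without replicate 4 the call of Cxcl1 at 30 min ended (1.12, edgeR's adjusted p = 0.0559).

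Cxcl16 was at 433, 352, 338 and 336 CPM in donors and at 206, 313, 271 and 161 CPM in acceptors at 30 min, with no overlap. The blocked log2 difference was 0.65 (SE 0.19, edgeR's adjusted p = 0.0227), and 0.54 without replicate 4 (edgeR's adjusted p = 0.0674). Cxcl14 was not called at any time. In replicate 4 it was lower in donors in 5 of 5 pairs, at 10.6, 9.55, 9.09, 12.8 and 8.85 CPM in donors and 32.5, 24.2, 24.6, 31.5 and 32.5 CPM in acceptors from 15 to 300 min, whereas donors were higher in 5 of 5 pairs of replicate 2 and 4 of 5 of replicate 3. In replicate 1 donors were higher in 1 of 6 pairs, with a median difference of -0.26.

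**Figure D5:**
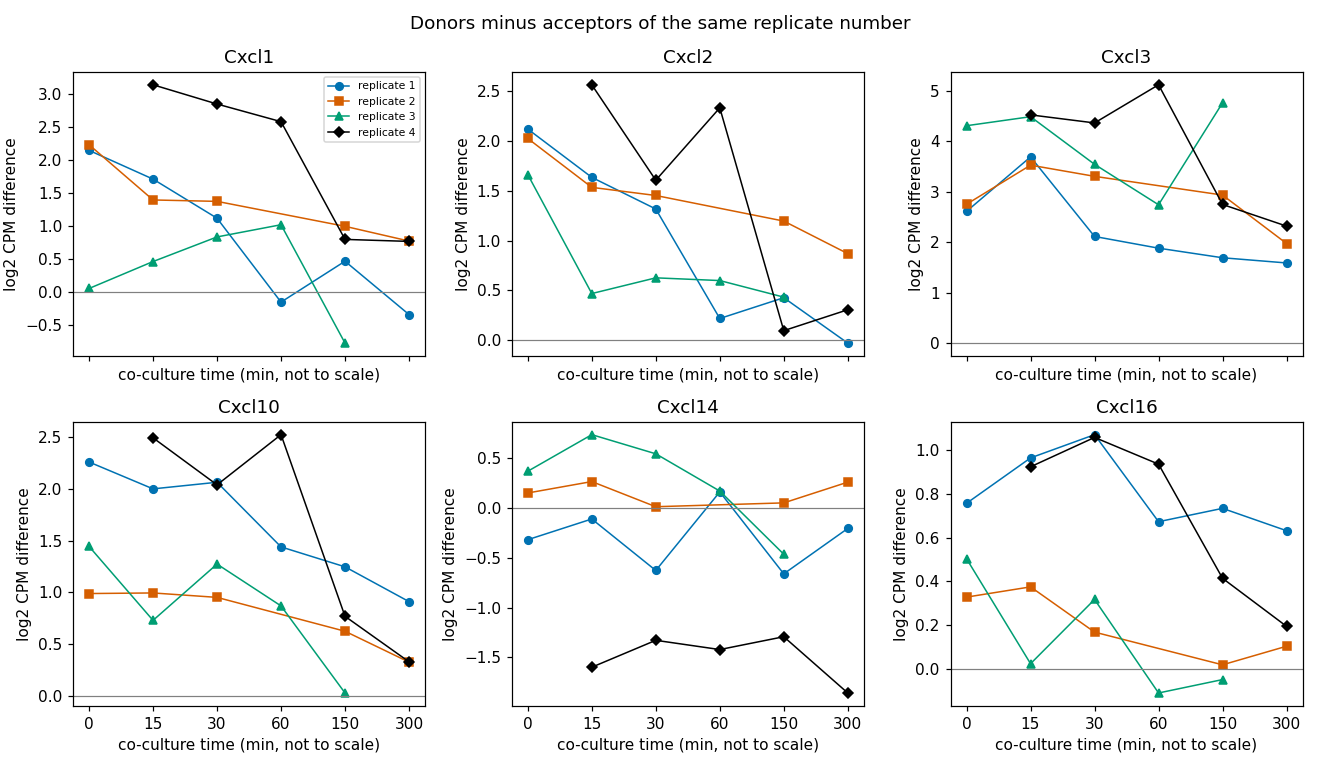
Log2 CPM difference (prior count 2) between donors and acceptors of the same replicate number at each co-culture time, with 1 line per replicate. Cxcl3 and Cxcl10 lie above 0 in 21 of 21 pairs each, and Cxcl14 of replicate 4 lies below 0 in 5 of 5.

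Within the lists, the ligand Pf4 was called higher in donors than in acceptors with the block at 15 min (1.10, edgeR's adjusted p = 0.000539) and 30 min (1.03, edgeR's adjusted p = 0.00106), and Cxcl9 at 15 min (2.22, edgeR's adjusted p = 0.0334) and 30 min (2.23, edgeR's adjusted p = 0.0292). Without replicate 2 Cxcl9 was not called in the blocked fit (edgeR's adjusted p = 0.168 and 0.135), and without replicate 4 it was at 1.56 and 1.44 and called. Of the 14 interferon pathway genes 4 were called higher in donors at 30 min with the block, as were 5.50% of all genes. Without the block none was called (none had an unadjusted p under 0.05). The 4 were Ifit2, Mx1 and Rsad2, antiviral effectors (1.39, 1.64 and 1.87, edgeR's adjusted p = 0.0435, 0.0227 and 0.0159), and Ifnb1, which encodes interferon beta (3.52, edgeR's adjusted p = 0.0456). Ifnb1 was at 0.380 ± 0.306 CPM in donors and 0.0317 ± 0.0634 CPM in acceptors (SD, n = 4), levels of a few counts. In the blocked fit without replicate 4 Ifit2 and Ifnb1 were not called (edgeR's adjusted p = 0.138 and 0.0852).

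Whether the donor-acceptor difference itself changed over time was tested in 1 model, and none of the 6 chemokines was called (smallest unadjusted p 0.332 without and 0.212 with the block, backgrounds 0% and 0.0456%). The change of donors from aSyn-treated cells was also set against the change of acceptors from untreated cells, a contrast added after the levels had been seen. For Cxcl1 the difference of these changes was -3.35 at 150 min (SE 1.29, edgeR's adjusted p = 1.00) without the block and -3.09 with it (SE 0.73, edgeR's adjusted p = 0.0279), where 0.957% of all genes were called. No other chemokine was called at any time in either fit. This contrast was not fitted with any replicate left out. At 150 min replicate 4 had the highest Cxcl1 of the acceptors, at 62.2 CPM against 5.96 to 12.7 CPM in the others.

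The genes whose group pattern was most like that of each chemokine were found by the root mean square difference of log2 fold changes from untreated cells over the 13 other groups. All 13 values share the untreated samples. The nearest to Cxcl1 were Clec4e (0.56), a lectin receptor of activated macrophages, Socs3 (0.56), a feedback inhibitor of cytokine signalling, and Trem1 (0.60). Cxcl2 stood at rank 9 of 13168 from Cxcl1, at 0.85. Cxcl3 was less close, at rank 32 from Cxcl1 (1.26) and rank 385 from Cxcl2 (1.88), where Cxcl16 was at rank 539 from Cxcl2 (2.01). The nearest to Cxcl2 was the immediate early gene Ier3 (0.41), followed by 4933416M07Rik (0.51) and Tnnc1 (0.53), and to Cxcl3 Slc7a11 (0.75), the cystine transporter, Lad1 (0.78) and Ceacam18 (0.79).

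Clec4e, Ier3 and Slc7a11 were picked for fold changes close to those of a chemokine, with the aSyn-treated group among those used. A rise after aSyn therefore follows from that choice, and the values below describe these genes without adding support. Clec4e after aSyn was called higher by 4.33 (edgeR's adjusted p = 0.0259) and Ier3 by 3.08 (edgeR's adjusted p = 0.0463). The call of Clec4e ended without replicate 2, 3 or 4 (edgeR's adjusted p = 0.0864, 0.102 and 0.153), and that of Ier3 without replicate 1, 2 or 3 (edgeR's adjusted p = 0.117, 0.0854 and 0.241). Without replicate 4 they were at 3.08 and 1.95. Slc7a11 had a log2 fold change of 4.78 without the block (edgeR's adjusted p = 0.0651) and 4.29 with it (edgeR's adjusted p = 2.15e-09). As for Cxcl1, the highest aSyn-treated value of Clec4e was that of replicate 4, at 67.6, 117, 346 and 851 CPM in replicates 1 to 4.

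The nearest to Cxcl10 were the interferon-induced genes Ifit1 (0.22), Rsad2 (0.25) and Usp18 (0.25). In untreated cells Ifit1 was at 153, 1035, 247.7 and 40.1 CPM, so replicate 2 was the highest and replicate 4 the lowest in it as in Cxcl10. Cxcl16 was nearest to Clec4d (0.09), Ero1l (0.10) and Abr (0.10), and Cxcl14 to Xpa (0.11), Abhd17c (0.12) and Kiz (0.12). Within 0.5 of Cxcl14 lay 7729 genes and within 0.5 of Cxcl16 1807, against 95 for Cxcl10, 1 for Cxcl2 and 0 for Cxcl1 and Cxcl3.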

How the data were processed

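The authors deposited raw counts of reads per gene symbol for all 54 libraries (QuantSeq forward 3′ libraries), per the file headers, and a normalized signal, which equalled count over size factor within 0.051 in 100% of values and was used for that check only. The tools STAR, Partek and DESeq2 and the build mm10 are named per the submitters' processing notes. Their roles, versions and use of strand are not given in the sources used here. Cxcl10 and Cxcl16 overlap Art3 and Zmynd15 on the opposite strand, so their counts are uncertain to that extent.

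Groups came from the group label. Untreated libraries with the same replicate number (2 and 4) were summed, because they differed less (chi-square per degree of freedom 10.3 and 12.1) than other untreated pairs (24.2 to 288). This gave 52 samples. Counts were tested with edgeR 4.0.16 (R 4.3.3, TMM, filterByExpr with a minimum count of 10, quasi-likelihood F test, group means of all 14 groups), in 19 pairwise comparisons and 3 tests over time. DESeq2 1.42.0 was an alternative. Titles give the replicate number. Samples of the same number deviated together from their group means in every comparison (lowest correlation of a pair 0.20, means 0.34 to 0.59), so results are given with the number as a block where that changes a call. Standard errors come from the fold change and its F statistic. The steps were also run on simulated data in which only the aSyn-treated group changed. Those data held no replicate as far apart as replicate 4 is in Cxcl1, Cxcl2 and Cxcl3, so they do not cover that case. CPM use TMM-scaled totals, and totals of 7807389 to 15537493 put 3 counts at 0.193 to 0.384 CPM, counting error only. Fold changes are printed for all members after aSyn and elsewhere for members called in either fit. The members and lists were chosen with earlier results of these data known. Some list genes are not reported here.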

Additional observations from a re-analysis of the deposited data

Results flagged for a closer look

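Of 60 groups of 4 samples (a chemokine in a group), 16 held a sample that stood apart by Dixon's ratio, the gap to the nearest other sample over the whole range. In 14 of these the sample was replicate 4 and it was high. The usual rate of about 1 in 20 holds for independent, normally distributed values. Here the ratio was taken on CPM without logs and the same replicates recur, so the 16 cannot be set against that rate. For Cxcl1 the ratio of replicate 4 was 0.945 in aSyn-treated cells, 0.849, 0.961, 0.954 and 0.846 in donors at 15, 30, 150 and 300 min, and 0.881 in acceptors at 150 min. For Cxcl2 it was 0.855 and 0.925 in acceptors at 30 and 150 min. For Cxcl3 it was 0.864 in aSyn-treated cells, 0.975, 0.942 and 0.896 in donors at 15, 150 and 300 min, and 0.946 and 0.945 in acceptors at 15 and 150 min. In untreated cells replicate 4 was the lowest sample for Cxcl1 and Cxcl2.

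In replicate 1, Cxcl14 stood apart in acceptors at 30 min (ratio 0.939, 41.7 CPM against 24.2 to 25.3 CPM) and Cxcl16 in donors at 30 min (ratio 0.833, 433 CPM against 336 to 352 CPM).

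At 300 min Cxcl1 and Cxcl2 were lower in donors than in aSyn-treated cells in 4 of 4 pairs each, and higher in acceptors than in untreated cells in 3 of 3. The difference of these changes was -3.52 for Cxcl1 (SE 1.34, edgeR adjusted p = 0.961) and -2.77 for Cxcl2 (SE 0.91, edgeR adjusted p = 0.846), and with the replicate block -2.94 and -2.14 (edgeR adjusted p = 0.0582 and 0.105), so neither passed the threshold.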

How the results depend on the processing

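The replicate block (pairing same-numbered samples) and single replicates left out changed the calls. The number of the 6 chemokines called after aSyn was 4 (2.50% of all genes), and fell to 1 when only those groups were fitted (0.320%). It ranged from 1 to 3 when each replicate was left out (0.557% to 2.30%). For acceptors against untreated cells it was 0 at each time without the block. With the block it was 1, 2, 2, 2 and 4 at 0, 15, 30, 60 and 150 min, 2, 3, 4, 2 and 2 in the blocked fit without replicate 4 (2.87%, 1.93%, 4.56%, 2.80% and 3.19% of all genes), and 3 at 150 min in that without replicate 2 (2.66%). The counts without replicate 4 include Cxcl10, lower in acceptors, at 0, 15 and 30 min and Cxcl14, higher, at 30 min, which were not called with all replicates. DESeq2 and the fit of 54 separate libraries each gave 2 at 150 min (1.13% and 0.696% of all genes). Leaving out each replicate gave 0 to 1 at 15 and 30 min, with the 1 from the fit without replicate 4 (0.0306% and 0.222%). For donors against acceptors it was 0 at each time without the block. With the block it was 3, 4, 4, 2 and 1 from 0 to 150 min (4.28%, 9.57%, 10.8%, 6.70% and 5.19% of all genes). In the blocked fit without replicate 4 it was 4, 4, 3, 1 and 1 (11.1%, 6.66%, 8.58%, 4.50% and 3.26%). Without replicate 2 the blocked fit gave 2, 3, 2 and 1 from 15 to 150 min (4.38%, 5.47%, 3.54% and 1.87%). DESeq2 gave 1 at 15, 30 and 60 min (1.75%, 1.88% and 1.01%), and the fit of only those groups gave 2 at 0 min and 1 at 30 min (0.367% and 0.113%). Leaving out each replicate gave 0 to 2 at 0, 15 and 30 min and 0 to 1 at 150 min. The highest of these counts came without replicate 4 (1.84%, 1.16%, 1.37% and 0.222%). Donors and acceptors at 0 min hold no replicate 4, so the samples compared there were unchanged. For change over time in donors the number was 0, and 0 to 1 when each replicate was left out (0.199% of all genes without replicate 4). The blocked fit without replicate 4 gave 1 (1.58%). The cause of these changes was not tested.

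Cxcl10 after aSyn reversed from -0.14 to 0.34 with the replicate block, to 0.99 without replicate 2 (range -0.58 to 0.99 over the replicates left out) and to 1.12 in the blocked fit without replicate 2, and Cxcl14 reversed from 0.20 to -0.16 in that last fit. The other chemokine fold changes that were recomputed kept their direction under every alternative that gave a value. DESeq2 size factors in edgeR and no filter on low counts changed no count of chemokines called, and CPM on DESeq2 size factors or plain library totals moved no group level beyond 1 SD. Blocked fits without replicates 1 and 3 were not run. The blocked fits without replicates 2 and 4 and the contrast of changes were chosen after seeing the data. Cxcl3 in untreated cells and acceptors rests on few counts, which limits its fold changes.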
